A study of Mus musculus with 6 samples.

Results

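Metallothioneins are small, cysteine-rich proteins that hold zinc and copper, and the genes described here are the 3 metallothionein genes expressed in these cells, Mt1, Mt2 and Mt3, with the metal sensor Mtf1 and the zinc exporter Slc30a1. Members were chosen by symbol, as the rows of the deposited expression tables whose Ensembl gene identifier maps to 1 of these 5 symbols. The rule used no expression value, although the set was chosen with earlier results of these data known. All 5 symbols had a row, out of 17193 gene rows in each table. All 5 also passed the filter on low values, a mean of at least 1 FPKM (fragments per kilobase of transcript and per number of mapped fragments, a level already divided by transcript length and library depth), which left 12255 genes for testing. Another metallothionein gene, Mt4, had a row but did not pass.

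The study sequenced poly-A RNA of astrocytes separated from the brain of C57BL/6 wild type mice aged 3 months. Cells were isolated with anti-ACSA-2 microbeads, which bind an epitope of the protein encoded by Atp1b2. The control group was labelled Mock, and the other group, labelled Quinpirole, came from mice given quinpirole, an agonist of the dopamine D2 receptor. Each group had 3 libraries, and the comparison asked which transcripts differed after quinpirole. The dose and duration for the sequenced mice were not given in the sources used here. Nothing in the sources says whether the 3 libraries of a group came from separate mice, so p-values measure only the spread between libraries, which may be technical.

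Metallothioneins bind zinc and copper through cysteine side chains and give zinc up when the thiols are oxidized. Mt1 and Mt2 are found in many tissues and are induced by metals, glucocorticoids and oxidative stress, whereas Mt3 is largely a brain protein that responds little to metals. MTF-1, the zinc-finger protein encoded by Mtf1, senses free zinc, enters the nucleus and binds metal response elements in front of Mt1, Mt2 and Slc30a1. ZnT1, the product of Slc30a1, carries zinc out of the cell across the plasma membrane.

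The metallothionein genes lie side by side on the plus strand of chromosome 8. In GENCODE M21 on GRCm38, Mt3 (ENSMUSG00000031760) spans chr8:94152607-94154146, Mt2 (ENSMUSG00000031762) spans chr8:94172664-94173568 and Mt1 (ENSMUSG00000031765) spans chr8:94179082-94180327. Each principal transcript (the main isoform in the annotation) has 3 exons, and is 536, 511 and 549 bases long for Mt3, Mt2 and Mt1. The coding sequences below, from GENCODE M21 transcripts, are printed without the stop codon and show why the family is named for its metal sites: the capitals mark the cysteine codons, TGC or TGT.
Mt1: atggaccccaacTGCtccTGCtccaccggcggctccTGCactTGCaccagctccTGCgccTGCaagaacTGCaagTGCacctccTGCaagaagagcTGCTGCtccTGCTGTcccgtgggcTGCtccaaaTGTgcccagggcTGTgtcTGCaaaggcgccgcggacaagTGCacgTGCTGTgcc
Mt2: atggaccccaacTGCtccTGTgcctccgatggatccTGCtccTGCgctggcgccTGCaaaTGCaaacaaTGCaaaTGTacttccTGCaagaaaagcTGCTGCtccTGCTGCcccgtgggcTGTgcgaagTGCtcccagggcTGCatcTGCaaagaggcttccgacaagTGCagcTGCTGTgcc
Mt3: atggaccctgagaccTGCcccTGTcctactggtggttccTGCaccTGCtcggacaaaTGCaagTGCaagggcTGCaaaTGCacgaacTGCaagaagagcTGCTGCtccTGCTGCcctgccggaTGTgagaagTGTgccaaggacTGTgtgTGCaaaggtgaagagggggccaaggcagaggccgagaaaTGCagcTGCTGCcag
Each sequence has 20 cysteine codons, among 61 codons in Mt1 and Mt2 and 68 in Mt3. In a global alignment Mt1 and Mt2 were identical at 79.6% of positions, whereas Mt3 was identical to Mt1 at 66.2% and to Mt2 at 67.6%. No word of 50 bases in the principal transcripts of Mt1 and Mt3 occurred in a transcript of another gene on either strand, so reads of these genes are distinguishable from each other at that length. Of the 50-base words of Mt2, 45.5% also lay in Gm45774, an antisense transcript on the opposite strand that had no row in the tables. The library kit does not mark strand in the protocol given, so the Mt2 level may hold reads of that transcript.

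The stretches in front of the genes are shown because Mt1, Mt2 and Slc30a1 are classical targets of MTF-1. They are 240 bases long, come from RefSeq on GRCm38.p6, lie on the plus strand and stop short of the RefSeq start site. The capitals mark a metal response element core, TGCACNC or TGCGCNC on either strand.
Mt1 (chr8:94178839-94179078): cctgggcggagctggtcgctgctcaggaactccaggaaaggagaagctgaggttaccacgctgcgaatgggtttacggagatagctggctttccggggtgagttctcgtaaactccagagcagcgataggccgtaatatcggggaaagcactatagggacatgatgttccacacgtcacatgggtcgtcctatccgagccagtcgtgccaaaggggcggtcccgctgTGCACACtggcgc
Mt2 (chr8:94172368-94172607): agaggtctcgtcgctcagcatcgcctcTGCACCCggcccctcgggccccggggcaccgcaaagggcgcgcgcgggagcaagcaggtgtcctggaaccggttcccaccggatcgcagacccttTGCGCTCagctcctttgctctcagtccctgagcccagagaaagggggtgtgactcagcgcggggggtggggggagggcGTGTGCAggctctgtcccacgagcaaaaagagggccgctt
Mt3 (chr8:94152357-94152596): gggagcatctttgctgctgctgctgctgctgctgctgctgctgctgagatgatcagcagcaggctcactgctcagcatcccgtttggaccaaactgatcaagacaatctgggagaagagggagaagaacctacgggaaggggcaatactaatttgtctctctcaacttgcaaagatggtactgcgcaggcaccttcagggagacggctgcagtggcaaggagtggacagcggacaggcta
Slc30a1 (chr1:191906531-191906770): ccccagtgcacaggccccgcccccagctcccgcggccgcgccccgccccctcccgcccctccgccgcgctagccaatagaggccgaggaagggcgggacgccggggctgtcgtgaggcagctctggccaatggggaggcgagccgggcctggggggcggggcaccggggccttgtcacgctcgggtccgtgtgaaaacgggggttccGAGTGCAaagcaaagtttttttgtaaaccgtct
Over the RefSeq window of 300 bases, from 250 before the start to 50 after it, Mt2 held 4 cores, Mt1 held 3, Slc30a1 held 2, Mt3 held 1 and Mtf1 held 0. Of 32851 RefSeq promoters, 25.7% held at least 1 core, 1.97% at least 3 and 0.517% at least 4. With the start site counted as 0, the Mt1 cores began at -23, 2 and 20, and those of Mt2 at -223, -128, -50 and 4, so that 2 of the 3 Mt1 cores lie beyond the bases printed. The antioxidant response element core, TGACNNNGC on either strand, occurred at 1 position in Mt2 and at 1 in Slc30a1, without overlap with a metal core, and in 12.4% of all promoters. Annotated starts differ: other Mt1 transcripts in GENCODE start 122 and 152 bases after the RefSeq start, and the principal Mt2 transcript 46 bases after it. A principal Mtf1 transcript starts at -445. The window ends 50 bases after the RefSeq start, so the bases in front of the later Mt1 starts were searched only in part. Those in front of the earlier Mtf1 start were not searched. All counts, including an absence of either core, hold for the RefSeq window only. These are letter matches and no binding was measured.

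Library depth, estimated from the steps of the lowest FPKM values, was 22400000 to 27700000 fragments, and the FPKM values summed to 401769 to 413730 in Mock and to 425244 to 437164 in Quinpirole. All 8 astrocyte markers passed the filter, and their summed level was 1190 to 1297 FPKM in Mock and 1147 to 1186 FPKM in Quinpirole. By the limma test used below, 2 of them were called lower in Quinpirole and 0 higher, against 10.9% of all genes called. Their median log2 fold change was -0.12, with 6 below 0 and 2 above. The 2 called were Atp1b2, which encodes the selected protein (178 FPKM in Mock, 156 in Quinpirole, -0.19, limma adjusted p 0.0382), and Slc1a2 (-0.42, limma adjusted p 0.0297). Gfap, the astrocyte intermediate filament, stood at 528 ± 36.1 FPKM in Mock (SD, n = 3), whereas the glutamate transporter Slc1a2 was low, at 8.10 ± 0.562 FPKM. The neuronal genes Snap25 and Rbfox3 were near 0 (0.0587 and 0.0264 FPKM in Mock), although the neuron list summed to 70.9 to 76.2 FPKM in Mock and 82.9 to 89.4 FPKM in Quinpirole, nearly all of it Stmn2 and Tubb3. Microglia markers summed to 281 to 290 and 290 to 299 FPKM. The oligodendrocyte list was at 6.49 to 7.53 and 6.63 to 7.34 FPKM, the precursor list at 2.07 to 2.67 and 1.70 to 1.93 FPKM, and the endothelial list at 53.1 to 54.3 and 51.4 to 53.8 FPKM. The pericyte list was at 25.4 to 27.4 and 21.1 to 22 FPKM, the ependymal list at 137 to 152 and 138 to 146 FPKM and the choroid plexus list at 27.5 to 28.5 and 28.7 to 30 FPKM. Most of the endothelial, pericyte, ependymal and choroid plexus sums came from Slco1a4, Pdgfrb, Foxj1 and Folr1 (45.7, 26.2, 125 and 25.5 FPKM in Mock). Kdr, Rarres2 and Ttr stood at 5.8, 17.5 and 2.53 FPKM in Mock. Pecam1, Rgs5, Kcnj8, Tmem212 and Kl, from the same lists, did not pass the filter. Of 3 erythroid genes only Alas2 had a row, at 0.00352 FPKM in Mock. The part of these lists in the values below was not tested, and in bulk RNA fewer cells of a type and less RNA per cell cannot be told apart.

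Mt3, Mt1 and Mt2 were among the most abundant transcripts of these astrocytes on the FPKM scale, which is per length. By level within a library, Mt3 ranked between 5 and 8 of 17193 genes, Mt1 between 12 and 17 and Mt2 between 18 and 21. Together they made up 1.53% to 1.73% of the FPKM sum of a Mock library and 1.57% to 1.63% of a Quinpirole library. Mt3 was above Mt1, and Mt1 above Mt2, in all 6 libraries, and the ranges of the 3 genes did not overlap. This order rests on the transcript lengths behind the FPKM values, which are not given in the sources used here. In GENCODE M21 the exonic length of all transcripts together is 1246 bases for Mt1, 588 for Mt2 and 1066 for Mt3, against principal transcripts of 549, 511 and 536 bases. Mt4, a metallothionein of stratified epithelia, was listed at 0 in 5 libraries and at 0.293 FPKM in Quinpirole 2.

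**Figure D1:**
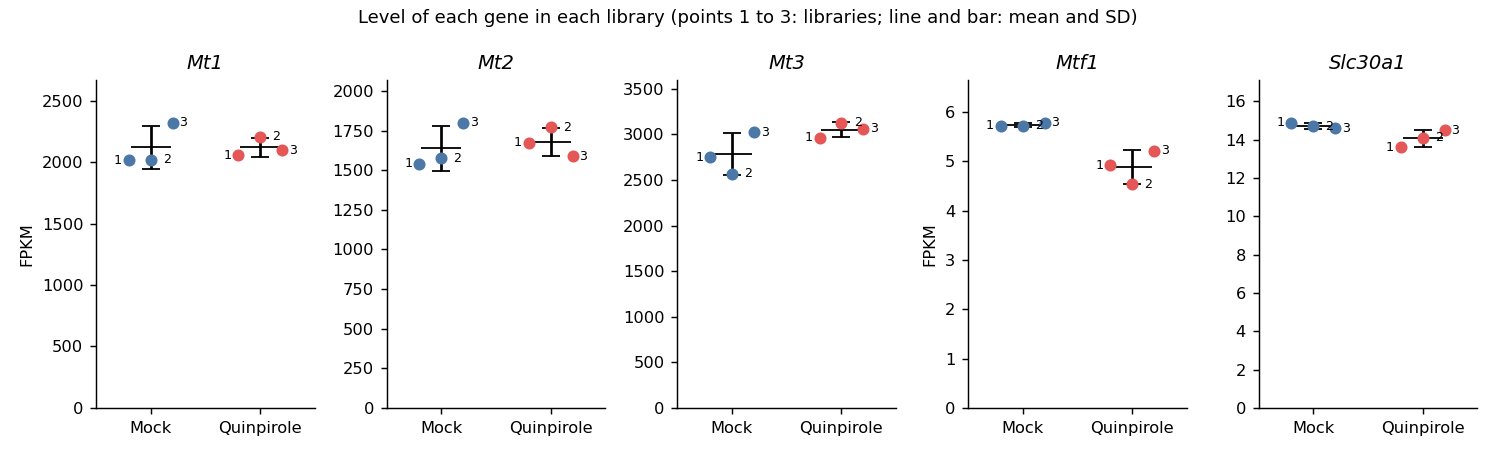
FPKM (vertical axes, from 0, a separate scale for each gene) of Mt1, Mt2, Mt3, Mtf1 and Slc30a1 in the 3 Mock and 3 Quinpirole libraries. Points are libraries numbered by replicate, and lines and bars are the mean and SD. The groups overlap for the 3 metallothioneins, while all Quinpirole points lie below all Mock points for Mtf1 (4.54 to 5.22 against 5.72 to 5.79 FPKM) and, by a small margin, for Slc30a1. Such separation in the lower direction held for 16.9% of all genes tested.

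Mt1, which encodes a widely expressed metallothionein, did not differ detectably between the groups. It stood at 2017, 2022 and 2323 FPKM in Mock 1 to 3 and at 2058, 2207 and 2097 FPKM in Quinpirole 1 to 3. Mock 3 was the highest of all libraries, and the Quinpirole values lay inside the Mock range. The means were 2121 ± 175 and 2120 ± 77.3 FPKM (SD, n = 3 each). The log2 fold change of Quinpirole against Mock was 0.00, with an SE of 0.07, a 95% confidence interval of -0.15 to 0.16 and an adjusted p of 0.986 (limma on log2(FPKM + 1), Benjamini-Hochberg over the 12255 genes). With the values as deposited, the interval thus covers changes of up to 0.16 upward and 0.15 downward on the log2 scale. It does not allow for the choice of scaling, which moved Mt1 as far as -0.17, as given below.

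Mt2, the neighbour and closest relative of Mt1, did not differ detectably either. Its levels were 1541, 1576 and 1801 FPKM in Mock and 1675, 1771 and 1590 FPKM in Quinpirole, so the groups overlapped, with Mock 3 again the highest. The means were 1639 ± 141 and 1678 ± 90.6 FPKM (SD, n = 3 each), a log2 fold change of 0.04 (SE 0.07, 95% confidence interval -0.13 to 0.20, limma adjusted p 0.758).

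Mt3, the brain metallothionein, had the highest level of the family and, with the values as deposited, the largest difference of the 3, which did not pass the test. It stood at 2752, 2568 and 3026 FPKM in Mock and at 2965, 3131 and 3062 FPKM in Quinpirole. Mock 1 and Mock 2 lay below every Quinpirole library, and Mock 3 lay among them. The means were 2782 ± 230 and 3053 ± 83.6 FPKM (SD, n = 3 each), 9.71% higher in Quinpirole, with a log2 fold change of 0.14 (SE 0.07, 95% confidence interval -0.02 to 0.29, limma adjusted p 0.200).

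The spread between libraries, not counting, limited these comparisons. The 3 genes varied between Mock libraries by 8.26% (Mt1), 8.61% (Mt2) and 8.28% (Mt3) of their mean, and between Quinpirole libraries by 3.65%, 5.40% and 2.74%. The estimated fragments behind each value, from 18200 for Mt2 in Quinpirole 3 to 43100 for Mt3 in Quinpirole 2, leave a counting error of 0.741% and 0.482%. These fragment numbers rest on the estimated depth and the principal transcript length, and the errors cover counting only.

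Ratios between metallothioneins within a library cancel the scaling of that library. Mt1 stood at 0.733, 0.787 and 0.768 times the Mt3 level in Mock and at 0.694, 0.705 and 0.685 times in Quinpirole. All 3 Quinpirole ratios were below all 3 Mock ratios. On the log2 scale the mean ratio was -0.39 ± 0.05 in Mock and -0.53 ± 0.02 in Quinpirole (SD, n = 3 each), a difference of -0.13. A two-sided exact permutation test gave p = 0.10, the smallest that 3 against 3 libraries allow, and 0.30 after adjustment over the 3 ratios, so the difference did not pass a threshold of 0.05 and could not have done so.

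Mt2 stood at 0.560, 0.614 and 0.595 times Mt3 in Mock and at 0.565, 0.566 and 0.519 times in Quinpirole, with Quinpirole 1 and Quinpirole 2 just above Mock 1. The log2 ratio differed by -0.10 (exact permutation p = 0.30, adjusted 0.40). Mt1 stood at 1.31, 1.28 and 1.29 times Mt2 in Mock and at 1.23, 1.25 and 1.32 times in Quinpirole, a log2 difference of -0.03 (exact permutation p = 0.40, adjusted 0.40). Quinpirole 3 had the highest Mt1 to Mt2 ratio of all libraries, and the groups overlapped.

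**Figure D2:**
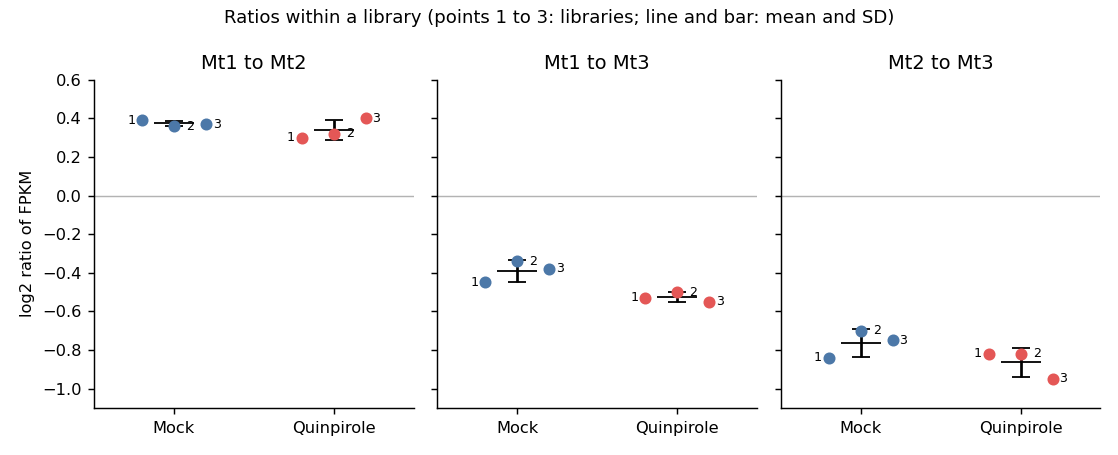
Log2 ratio of FPKM (vertical axis) for Mt1 to Mt2, Mt1 to Mt3 and Mt2 to Mt3 within each library, with the mean and SD of each group of 3. For Mt1 to Mt3 the Quinpirole libraries (-0.55 to -0.50) lie below the Mock libraries (-0.45 to -0.34), and for the other ratios the groups overlap.

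Mtf1, which encodes the zinc-sensing transcription factor, was expressed at a far lower level and was lower in every Quinpirole library, without passing the test. The gene (ENSMUSG00000028890, chr4:124802104-124849800, plus strand) stood at 5.72, 5.72 and 5.79 FPKM in Mock and at 4.92, 4.54 and 5.22 FPKM in Quinpirole. The Mock libraries were nearly equal and the groups did not overlap. The means were 5.74 ± 0.0419 and 4.89 ± 0.344 FPKM (SD, n = 3 each), 14.8% lower by this measure, with a log2 fold change of -0.20 (SE 0.06, 95% confidence interval -0.34 to -0.05, p 0.0151, adjusted p 0.0811 by limma). Of the 12255 genes tested, 16.9% lay lower in all Quinpirole libraries than in all Mock libraries. About 890 to 1210 estimated fragments per library stood behind Mtf1, a counting error of 2.88% to 3.35%. Of its 50-base words 8.86% were shared with 1110065P20Rik, an overlapping gene on the opposite strand that averaged 35.3 FPKM in Mock and 42.7 FPKM in Quinpirole. As for Mt2, strand is not marked in the protocol given, so the Mtf1 level and its difference may hold reads of that gene.

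Slc30a1, which encodes the zinc exporter ZnT1, differed little. The gene (ENSMUSG00000037434, chr1:191906767-191913247, plus strand) stood at 14.9, 14.7 and 14.6 FPKM in Mock and at 13.6, 14.1 and 14.5 FPKM in Quinpirole. The Quinpirole values lay below the Mock values, as for 16.9% of all genes tested, with Quinpirole 3 close to Mock 3. The means were 14.7 ± 0.153 and 14.1 ± 0.454 FPKM (SD, n = 3 each), with a log2 fold change of -0.07 (SE 0.04, 95% confidence interval -0.17 to 0.04, limma adjusted p 0.351). Of its 50-base words 8.08% were shared with the antisense transcript 1700034H15Rik, which had no row and whose reads the Slc30a1 level may hold.

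Across the set, 0 of 5 genes passed the limma threshold of an adjusted p of 0.05 and 1 of 5, Mtf1, had an unadjusted p under 0.05. Over all genes tested the same fit called 1339 of 12255, or 10.9%, with 704 higher and 635 lower, and 3839, or 31.3%, had an unadjusted p under 0.05. The median log2 fold change of the 5 genes was 0.00, against 0.02 for all genes tested.

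The fold changes of all genes moved with transcript length, and most members sit towards the ends of that range. Ordered by the length of the principal transcript, the shortest quintile of genes had a median log2 fold change of 0.13, the next quintiles 0.07, 0.02 and -0.03, and the longest -0.14. Mt1, Mt2 and Mt3 belonged to the shortest quintile, at 0.00, 0.04 and 0.14. Mtf1, with a principal transcript of 7631 bases, and Slc30a1, with 5244 bases, belonged to the longest quintile, which began at 5161 bases, at -0.20 and -0.07. By exonic length the medians ran from 0.12 to -0.11, the 3 metallothioneins and Mtf1 kept these places and Slc30a1 lay in the middle quintile, with a median of 0.02. Why fold change moved with length was not tested.

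**Figure D3:**
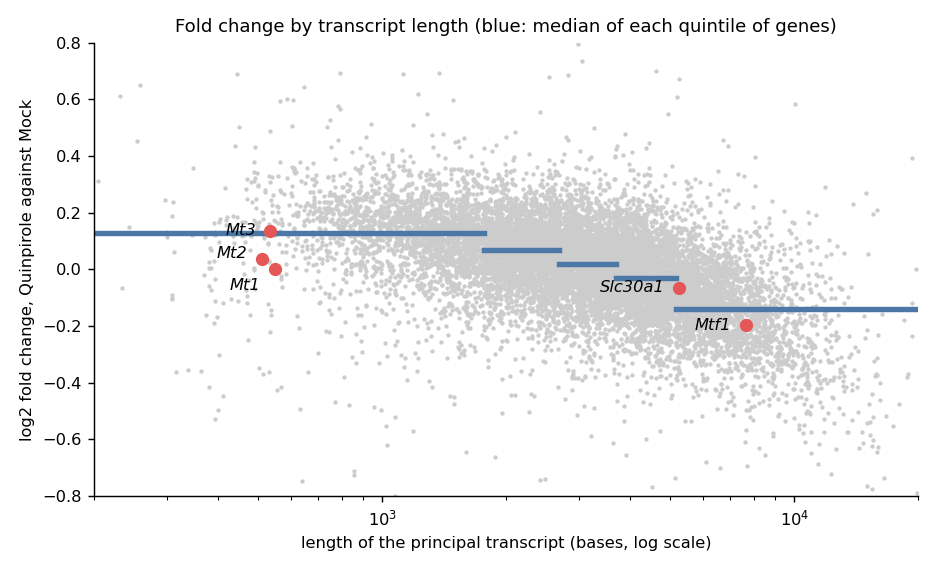
Log2 fold change of Quinpirole against Mock (vertical axis) against the length of the principal transcript (horizontal axis, log scale), with 1 grey point for each of 12184 genes, the median of each quintile of genes by length as blue lines and the 5 members in red. The 39 genes beyond 0.8 in either direction, below 200 bases or above 20000 bases are not drawn. The medians fall from 0.13 to -0.14, Mt1 and Mt2 lie below the median of the shortest quintile, and Mtf1 lies below that of the longest.

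The sign for Mt1 and Mt2 depended on the scaling. When each library was brought to the same distribution of values (quantile normalization), Mt1 was called lower, with a log2 fold change of -0.17 and an adjusted p of 0.0279, while 6.39% of all genes were called. After removal of the trend with exonic length Mt1 stood at -0.12 (adjusted p 0.0974) and Mt2 at -0.11 (adjusted p 0.136), and after removal of the trend with principal transcript length at -0.15 (adjusted p 0.0660) and -0.11 (adjusted p 0.123). Mt3 came to 0.01 and -0.01 under these corrections. Mtf1 was called when each library was scaled to a common FPKM sum (-0.26, adjusted p 0.0488, with 11.9% of all genes called) and shrank to -0.04 (adjusted p 0.713) after the correction for principal transcript length. Adjusted p-values here are from limma as above.

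**Figure D4:**
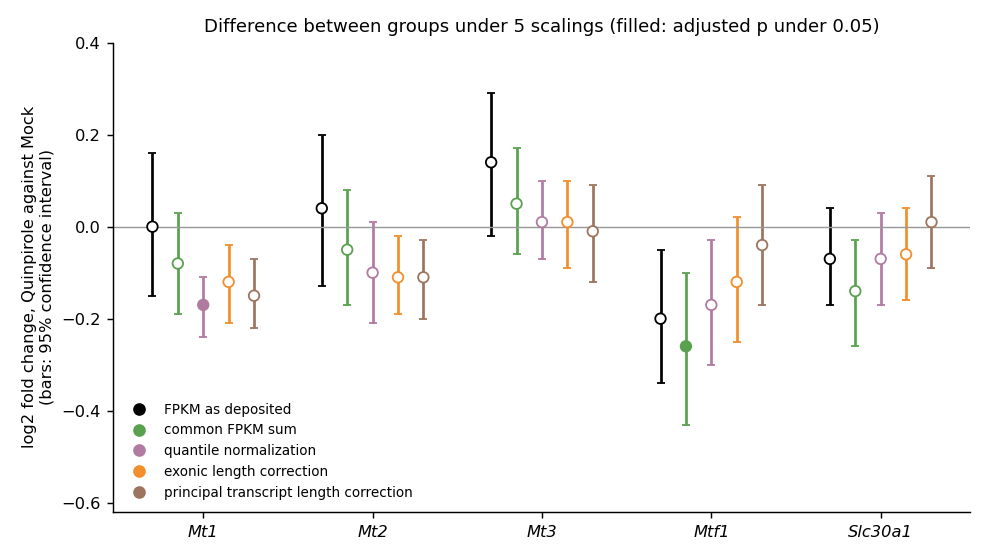
Log2 fold change of Quinpirole against Mock (vertical axis, bars 95% confidence intervals from limma) of each member under 5 scalings of the same 6 libraries, filled where the adjusted p was under 0.05. The filled points are Mt1 under quantile normalization (-0.17) and Mtf1 under a common FPKM sum (-0.26), and Mt3 and Slc30a1 are open under each scaling drawn.

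Other zinc transporters showed no call, and each list below is read against the 10.9% of all genes called and the 31.3% with an unadjusted p under 0.05. Of 10 ZnT family genes, listed here as zinc exporters, 9 had a row and 6 were tested, Slc30a1 included. By limma 0 were called and 0 had an unadjusted p under 0.05, with a median log2 fold change of 0.00. Slc30a9, the gene of highest level in this list, averaged 21 ± 1.32 FPKM in Mock and 21.8 ± 1.25 FPKM in Quinpirole (SD, n = 3 each), and its log2 fold change was 0.05 (95% confidence interval -0.10 to 0.19). Of 14 ZIP family importers, which bring zinc into the cytosol, 13 had a row and 12 were tested. Again 0 were called by limma and 0 had an unadjusted p under 0.05, with a median of -0.01. Slc39a1, the importer of highest level, stood at 114, 121 and 121 FPKM in Mock and 123, 127 and 122 FPKM in Quinpirole. These groups did not overlap, which held for 20.0% of all genes in the higher direction, and the log2 fold change was 0.06 (SE 0.04, limma adjusted p 0.337).

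Of 12 copper handling genes, all tested, 1 was called lower and 0 higher, 6 had an unadjusted p under 0.05 by limma and the median log2 fold change was 0.11. The share called was near the 10.9% of all genes, and 31.3% of all genes had such an unadjusted p. The gene that fell was Atp7a, a copper-transporting ATPase of the secretory pathway. It stood at 5.92, 5.48 and 5.36 FPKM in Mock and at 4.38, 3.94 and 4.64 FPKM in Quinpirole, a log2 fold change of -0.31 (SE 0.07, limma adjusted p 0.0410). The groups did not overlap, which held for 16.9% of all genes tested in the lower direction. Atox1, the small chaperone that hands copper to Atp7a, was the copper gene of highest level, at 121, 118 and 132 FPKM in Mock and 136, 150 and 142 FPKM in Quinpirole. Its log2 fold change was 0.20 (SE 0.06, limma adjusted p 0.0577), which did not pass. The principal transcript of Atox1 has 541 bases and that of Atp7a 4900, and after the exonic length correction the Atp7a value was -0.23 (adjusted p 0.0743), no longer called.

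Of 7 described MTF-1 targets, Mt1, Mt2 and Slc30a1 among them, 1 was called higher and 0 lower, which for 7 genes is near the 10.9% of all genes called, with a median log2 fold change of 0.04. By limma 1 had an unadjusted p under 0.05, against 31.3% of all genes. The list does not record whether MTF-1 raises or lowers a target. Selenow, which encodes a small selenoprotein, rose from 394, 421 and 435 FPKM in Mock to 459, 493 and 487 FPKM in Quinpirole. The groups did not overlap, which held for 20.0% of all genes tested in the higher direction. The log2 fold change of Selenow was 0.20 (SE 0.05, limma adjusted p 0.0453). After the exonic length correction it was 0.06 (adjusted p 0.295), no longer called. Mt1 was the most highly expressed gene of this list.

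Of 15 genes listed as glucocorticoid-inducible, with the glucocorticoid receptor gene Nr3c1 among them, 14 were tested. Of these, 2 were called higher and 0 lower, 4 had an unadjusted p under 0.05 by limma and the median log2 fold change was -0.01. Both counts were near the shares of all genes, 10.9% called and 31.3% with such an unadjusted p. Sgk1, a kinase that controls ion transport, stood at 69.3, 72.2 and 73.2 FPKM in Mock and at 84.5, 89.6 and 82.9 FPKM in Quinpirole, a log2 fold change of 0.26 (SE 0.04, limma adjusted p 0.0247). Errfi1, a feedback inhibitor of the EGF receptor, stood at 9.72, 9.04 and 9.25 FPKM in Mock and at 11.6, 11.0 and 10.7 FPKM in Quinpirole, a log2 fold change of 0.23 (SE 0.05, limma adjusted p 0.0419). Neither gene overlapped between the groups, which held for 20.0% of all genes tested in the higher direction. Cdkn1a, a cell cycle inhibitor and the gene of highest level in this list, averaged 173 ± 1.92 and 184 ± 5.17 FPKM (SD, n = 3 each), a log2 fold change of 0.08 (limma adjusted p 0.160). After the exonic length correction Errfi1 was at 0.19 (adjusted p 0.0896), no longer called, and Sgk1 at 0.25 (adjusted p 0.0367).

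**Figure D5:**
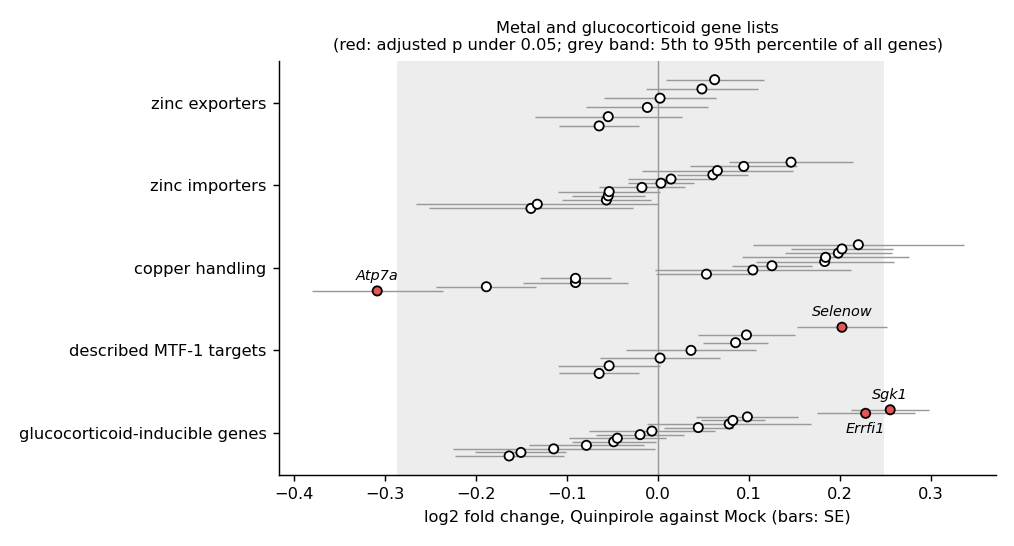
Log2 fold change of Quinpirole against Mock (horizontal axis, bars SE) of each tested gene of 5 lists, filled red where the limma adjusted p was under 0.05. The grey band spans the 5th to 95th percentile of all genes tested with a known transcript length (-0.29 to 0.25). Atp7a (-0.31), Selenow (0.20), Errfi1 (0.23) and Sgk1 (0.26) are the called genes, and the zinc exporters and importers lie within the band.

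The genes described here that start within 200 kb of Mt1 were expressed at much lower levels and showed no call. Nup93 averaged 38.5 FPKM in Mock and 40.9 FPKM in Quinpirole, Nudt21 22.8 and 25.2 FPKM, Bbs2 8.15 and 8.33 FPKM, and Ogfod1 7.72 and 6.99 FPKM. Their log2 fold changes were between -0.13 (Ogfod1) and 0.13 (Nudt21), with limma adjusted p-values from 0.178 to 0.770. Slc12a3 was near 0 (0.0143 and 0.0299 FPKM) and was not tested. Mt4, which lies between Bbs2 and Mt3, averaged 0 FPKM in Mock and 0.0975 FPKM in Quinpirole and was not tested. The step in level from Bbs2 or Mt4 to Mt3 was far larger than any difference between the groups in this stretch.

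The genes whose levels across the 6 libraries were most like those of a metallothionein were ranked by Pearson r of log2(FPKM + 1) among 9014 genes with a mean of at least 5 FPKM, as a description over only 6 libraries that share depth and scaling. For Mt1 they were Acot8 (r = 0.991), Ranbp3 (0.986), Camk2b (0.983), Slc22a17 (0.980) and Plin2 (0.977). For Mt2 they were P4htm (0.989), Sumf2 (0.985), Maf1 (0.981), Gm9843 (0.979) and Rnf4 (0.974). For Mt3 they were Fut11 (0.988), Rab24 (0.983), Selenoo (0.982), Rsl1d1 (0.980) and Ctdnep1 (0.979). Mt1 and Mt2 had an r of 0.904 with each other, which put Mt2 at place 68 for Mt1 and Mt1 at place 91 for Mt2. Mt3 had an r of 0.665 with Mt1 and 0.674 with Mt2, which put Mt3 at place 697 for Mt1 and at place 1004 for Mt2. In the ranking for Mt3, Mt1 was at place 2119 and Mt2 at place 2026.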

How the data were processed

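RNA sequencing was performed on 6 libraries of mouse astrocytes, 3 Mock and 3 Quinpirole, grouped by the sample titles. The authors removed adaptors and low-quality reads from paired-end HiSeq data and mapped the rest with TopHat2, allowing at most 1 mismatch. The deposited tables hold an FPKM value for every gene row. The submitters' processing notes name GRCm38, and the program behind the FPKM values is not given in the sources used here. Depth was inferred from the step size of low FPKM values, of which 59.6% to 68.6% lay within 0.1 of a whole fragment. No 2 libraries shared more than 0.00607% of the values above 0.

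Values were tested as log2(FPKM + 1) by limma 3.58.1 in R 4.3.3 over genes averaging 1 FPKM or more (lmFit, eBayes with trend, two-sided, Benjamini-Hochberg, threshold 0.05), which was tested on simulated data. A fold change on this scale is understated for low genes. Ratios were compared by two-sided exact permutation tests (scipy 1.17.1). Length corrections subtracted a loess fit (span 0.3) of each library's deviation on log2 length, known for 12223 genes, and would remove a true change related to length. Of 17193 identifiers 17090 matched a symbol.

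The members and lists were chosen with earlier results of these data known. Named are the members, Mt4, called and most expressed list genes, protein-coding genes within 200 kb of Mt1 and the 5 genes most like each metallothionein. A neighbouring gene is not reported here. Alternatives covered the pseudocount (0.1), the filter (none, or 5 FPKM), median ratio, common sum and quantile scaling, eBayes without trend or robust, a replicate block, length and GC corrections and omission of each library. The principal transcript length correction, and length corrections of the ratios, were added after the data were seen.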

Additional observations from a re-analysis of the deposited data

How the results depend on the processing

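None of the 5 genes was called with the FPKM values as deposited, and of 19 alternatives each, Mt1 was called in 1, Mtf1 in 1 and Mt2, Mt3 and Slc30a1 in 0. The Mt1 log2 fold change turned negative under median ratio scaling (-0.01), a common FPKM sum (-0.08), quantile normalization (-0.17), the exonic length correction without and with the replicate block (-0.12 in both), the length and GC correction (-0.10) and the principal transcript length correction (-0.15). Mt2 turned negative under a common FPKM sum (-0.05), quantile normalization (-0.10), the length correction without and with the block (-0.11 in both), the length and GC correction (-0.08) and the principal length correction (-0.11). The principal length correction also turned Mt3 to -0.01 and Slc30a1 to 0.01, and a common FPKM sum brought Mtf1 to -0.26. Without 1 library, Mt1 ranged from -0.03 to 0.07, Mt2 from -0.01 to 0.11, Mt3 from 0.08 to 0.20, Mtf1 from -0.24 to -0.15 and Slc30a1 from -0.09 to -0.04. Mt1 turned to -0.03 without Mock 1, Mock 2 or Quinpirole 2, and Mt2 to -0.01 without Mock 1 and 0.00 without Quinpirole 2. The median log2 fold change of all genes was -0.06 under a common FPKM sum against 0.02 as deposited, and the calls then split into 220 higher and 1236 lower.

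The number of genes called, 1339, was 633 without a filter, 783 after quantile normalization, 714 without trend, 509 after the length correction, 375 after the length and GC correction and 241 after the principal length correction. Quantile normalization split its calls into 283 higher and 500 lower, median ratio scaling into 580 and 693, eBayes without trend into 293 and 421. Leaving out 1 library gave 3 to 1215 calls, with 6 without Mock 1, 3 without Mock 2, 1215 without Mock 3, 11 without Quinpirole 1, 25 without Quinpirole 2 and 210 without Quinpirole 3. The replicate numbers of the labels gave correlations of 0.026, -0.0657 and -0.103 between same-numbered libraries, which do not pair them. With a replicate block 2 genes were called, and 0 with the block and the length correction, where 2723 had an unadjusted p under 0.05 by limma. The block left each member uncalled, and the sign-flip test of the paired log2 ratios gave -0.03 (Mt1 to Mt2, exact p = 0.50), -0.13 (Mt1 to Mt3, exact p = 0.25, the smallest it allows) and -0.10 (Mt2 to Mt3, exact p = 0.50).

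The 3 ratio differences kept their sign under every alternative run, from -0.17 to -0.11 for Mt1 to Mt3. Part of this was fixed in advance. Pairing the libraries leaves a difference of means unchanged. For Mt1 to Mt3, where the groups did not overlap, leaving out 1 library could not change the sign. After the length correction 0 copper genes were called lower, 0 described MTF-1 targets higher, and 1 glucocorticoid-inducible gene higher and 1 lower (Ddit4, named after its values were seen). After quantile normalization 0 MTF-1 targets were higher and 1 was lower (Mt1), 1 glucocorticoid-inducible gene was lower (Ddit4), and the copper gene called was Cp in place of Atp7a. Sgk1 was called in 13 of 19 alternatives, Errfi1 and Selenow in 5 of 19, Atp7a in 5 of 18 (its mean is under 5 FPKM, so that filter gave no value) and Atox1 in 2 of 19. Slc30a9 turned to -0.03 under a common FPKM sum. Slc39a1 turned to -0.02 under that scaling and the length corrections without and with the block, to -0.03 after quantile normalization and to 0.00 after the length and GC correction. Cdkn1a turned to -0.03 after quantile normalization. The cause of these shifts was not tested.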
